A study of Cucumis sativus with 2 samples.

Results

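The cuticle, wax and epidermal identity genes described here are cucumber (Cucumis sativus) genes whose Arabidopsis homologue in the deposited read table is 1 of 43 listed loci. The loci cover acyl supply, chain elongation, wax synthesis, cutin synthesis, export to the surface and the regulators that specify epidermis and trichomes. The rule uses homologue loci and no measured value. It found 59 of the 20700 genes in the table, from 34 of the 43 loci, with 19 loci matched by 1 cucumber gene and 15 by 2 or more. The remaining 9 loci (KCS1, KCS2, GPAT4, CYP86A2, CYP86A4, CYP77A6, BDG, WSD1 and MAH1) were matched by no row of the table used here and are not analysed here.

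RNA was sequenced from bending fruit at day 2 after anthesis, with 1 library for each side of the fruit, ventral and dorsal. The labels give no cultivar and do not say how many fruits entered a library, and both libraries hold whole fruit tissue rather than isolated epidermis. The ventral library held 21863715 reads and the dorsal library 11893394. With 1 library per side no test between the sides can be made, so there is no p-value, no standard deviation and no replicate check of any difference.

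The plant cuticle is a layer of cutin, a polyester of hydroxylated fatty acids and glycerol, embedded in and covered by waxes. Epidermal cells make it: plastids release fatty acids, the endoplasmic reticulum elongates them to very long chains and turns them into alkanes and alcohols or into cutin monomers, and transporters carry both across the plasma membrane. In Arabidopsis, homeodomain factors of the HD-ZIP IV class set the identity of the outer cell layer. Roles given below are those of the Arabidopsis homologues, and where the deposited table uses another symbol for a homologue it is given once.

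Levels are given as deposited RPKM, reads scaled for transcript length and library size, which allow genes to be set side by side. Ratios between the sides are ratios of reads, ventral over dorsal, after scaling the libraries by the trimmed mean of M values (TMM), by which the ventral library was 2.16 times deeper than the dorsal library. Brackets hold the exact 95% counting interval of the ratio on the log2 scale. It covers counting error only: PCR copies are not separate molecules, and how much fruits vary was not measured. A gene is called ventral-high or dorsal-high here when its ratio is 2-fold or more in that direction and the interval does not include a ratio of 1. RPKM rests on library totals, so RPKM ratios lie 0.26 (log2) further to the ventral side than TMM ratios. In whole tissue, fewer cells of a type and less RNA per cell cannot be told apart.

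As a whole the cuticle and epidermal genes did not lean to either side of the fruit. Of the 59 genes, 48 were measured, with at least 20 reads summed over both libraries. Of these, 6 were ventral-high, 6 were dorsal-high and 36 were neither. That is 12.5% in each direction, where 13.2% of all 17462 measured genes were ventral-high and 11.5% dorsal-high. With total reads in place of TMM, every log2 ratio rises by 0.23 and the split is 8 and 1. Over all 17462 measured genes that scaling likewise gave 3336 ventral-high and 1283 dorsal-high. The median log2 ratio was 0.16 for the 48 genes and 0.01 for all measured genes. The intervals of 33 of the 48 genes lay wholly within 2-fold either way, and 27 ratios were below 1.5-fold.

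The ventral-high genes were the elongase gene KCS4, the cutin hydroxylase gene CYP86A8, the transporter gene ABCG32, and the regulators TTG1, ATML1 and an ANL2 copy. Dorsal-high were LACS2 and a FATB copy of acyl supply, the chain elongation gene CER2, a CER1 copy, the transporter gene ABCG12 and the regulator PDF2. All 12 kept their sign under each of the 10 alternative settings in which they could be measured. KCS4 and TTG1 also kept their call under every one of the 10 settings, and the other 10 genes lost it under at least 1. These tallies do not rank the genes by how firm their calls are, because part of the outcome was fixed in advance. Changing the read minimum leaves the ratio of a measured gene as it is. RPKM with no filter repeats, for each of these genes, the ratio from filtered RPKM with the same pseudocount. Because total reads raise every ratio, that scaling could end a dorsal-high call but not a ventral-high one. Scaling by total reads ends the call for LACS2, CER2 and ABCG12 and for the FATB and CER1 copies, but not for PDF2.

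**Figure D1:**
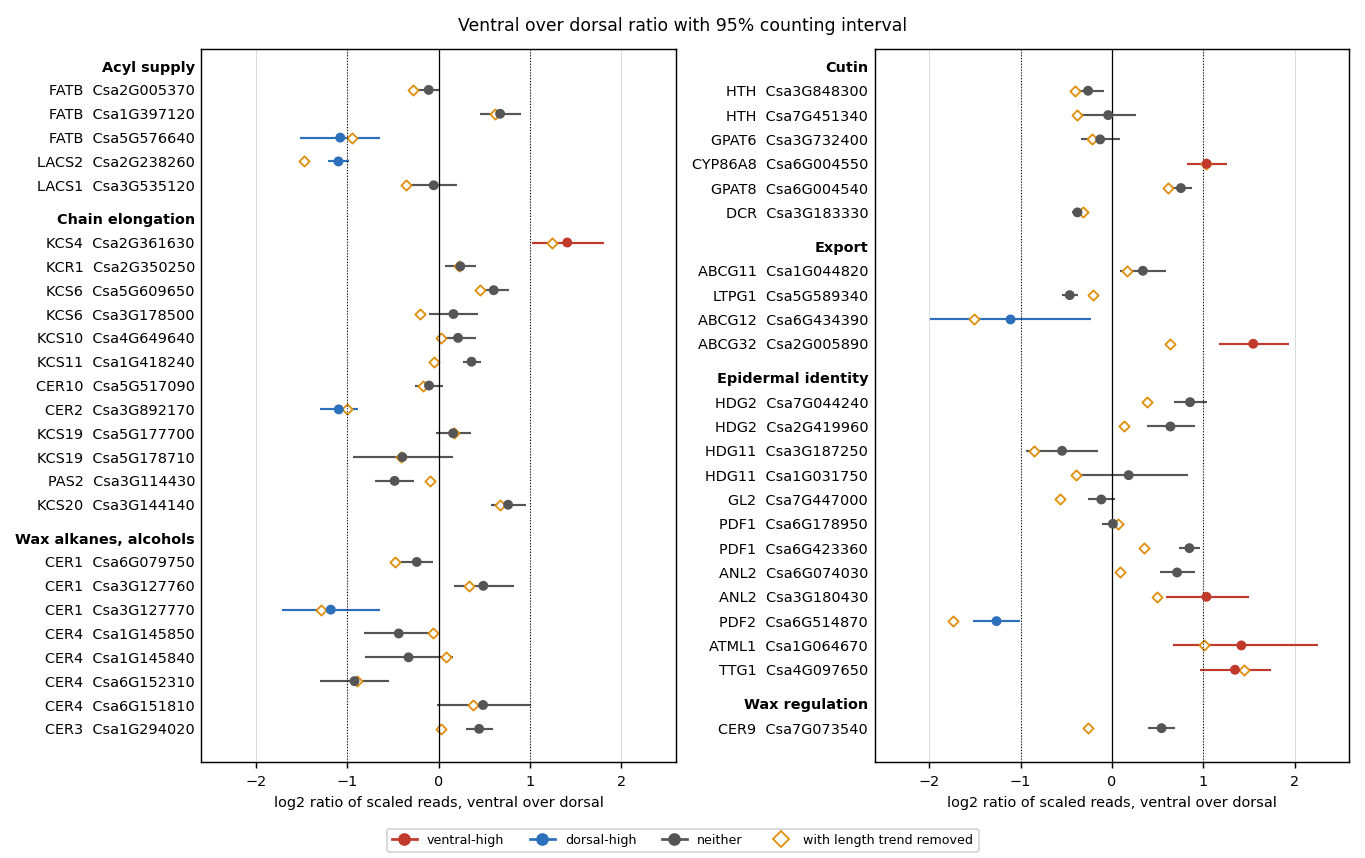
Ratio of scaled reads (log2, ventral over dorsal) for the 48 measured genes by role, with bars for the 95% counting interval, dotted lines at 2-fold and open diamonds for the value with the trend of the ratio with transcript length removed. The 6 red genes are ventral-high and the 6 blue genes dorsal-high, and diamonds of long transcripts such as ABCG32 lie left of their circles.

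Transcript length moved with the ratio and is given beside the results for that reason. Reads divided by RPKM give the exonic length of each gene, and over all 17462 measured genes the log2 ratio rose with it (Spearman rho 0.39, across genes of the same pair of libraries). Over the 48 cuticle and epidermal genes rho was 0.36. These genes have long transcripts, with a median of 1938 bp against 1464 bp for all measured genes. Among the 3493 genes with the longest transcripts (from 2274 bp) the median log2 ratio was 0.59, and the 17 members there had a median of 0.44.

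With a smooth fit of this trend subtracted, the median of the 48 genes was -0.059, against a median of all genes close to 0. In that setting 4 genes were ventral-high and 5 dorsal-high, where 10.9% and 8.34% of all measured genes were. These 9 are among the 12 genes named above. The 3 that were no longer called were ABCG32, the ANL2 copy and the FATB copy.

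**Figure D2:**
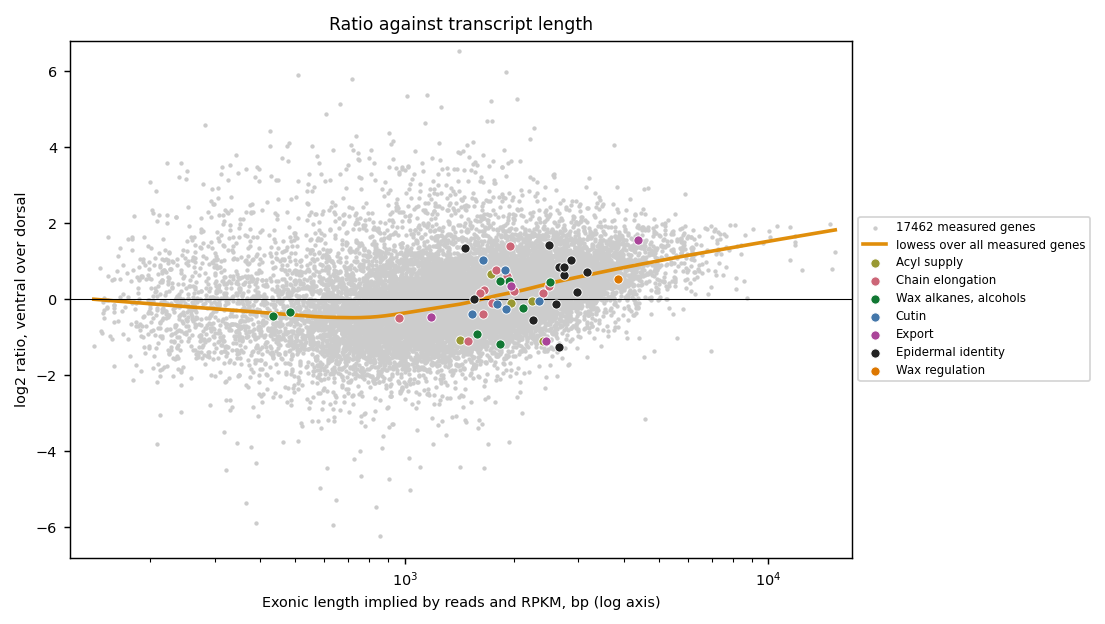
Log2 ratio (ventral over dorsal, vertical axis) against exonic length in bp (log axis) for 17462 measured genes in grey, with the 48 cuticle and epidermal genes coloured by role and the smooth trend over all genes as a line. The line lies below 0 for short transcripts and rises to above 0 for long ones, and the epidermal identity genes lie mostly in the upper part of the length range.

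In level, a cutin gene and a surface lipid transfer gene led the set. DCR (Csa3G183330, AT5G23940, listed as PEL3, on chromosome 3), an acyltransferase needed for cutin assembly, was the highest in both libraries with 181.1 RPKM ventral and 196.4 dorsal. It alone made up 17.1% of the summed RPKM of the 59 genes in the ventral library and 21.9% in the dorsal one. LTPG1 (Csa5G589340, AT1G27950), a lipid transfer protein anchored at the cell surface, came second with 100.03 and 115.1 RPKM. The median over the 48 measured genes was 15.5 RPKM in the ventral library and 10.3 in the dorsal one, beside 14.1 and 11.1 over all measured genes. At least 10 RPKM was reached by 29 genes in the ventral library and by 26 in the dorsal one.

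**Figure D3:**
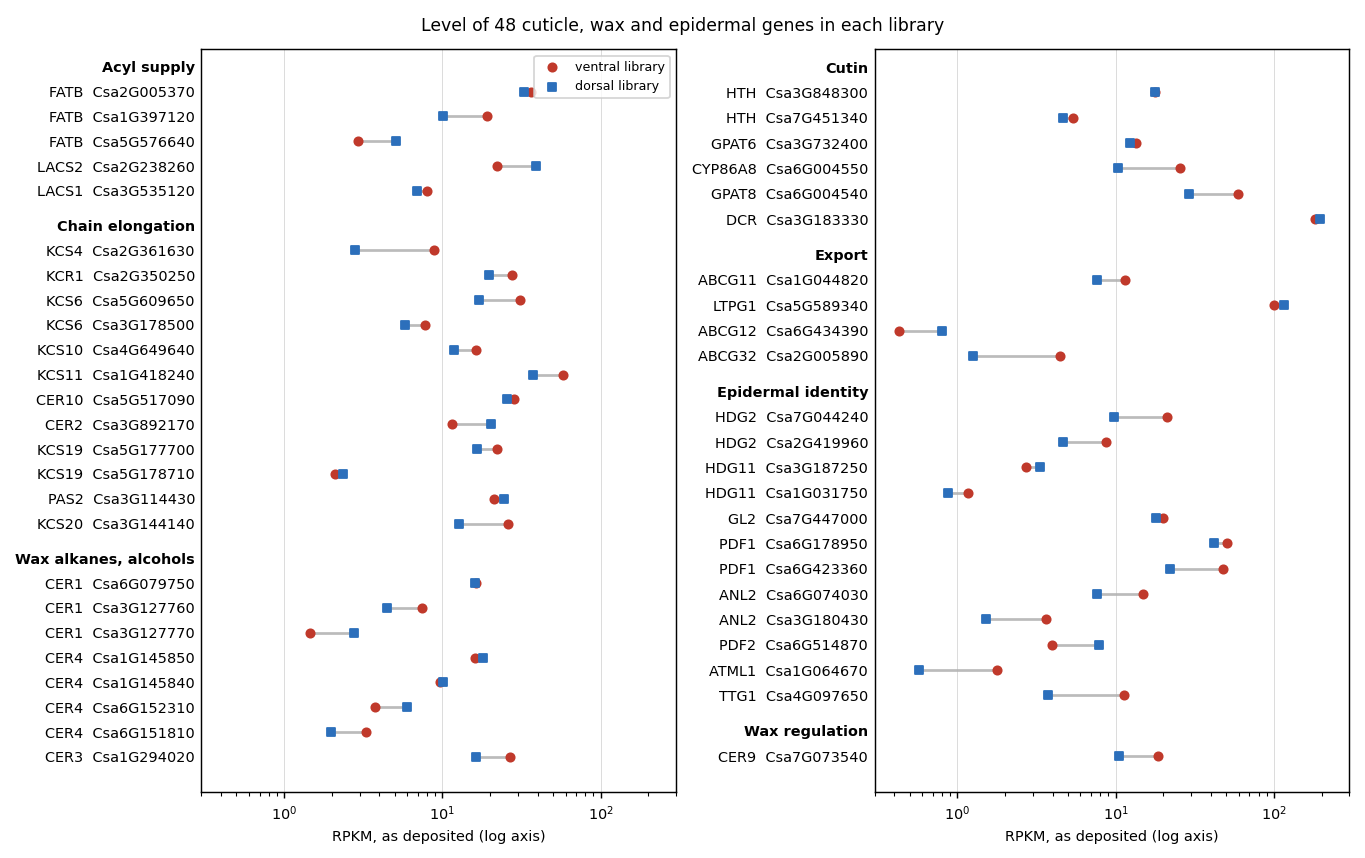
Deposited RPKM (log axis) of the 48 measured genes by role, with a red circle for the ventral and a blue square for the dorsal library and 1 value per library. DCR is highest at 181.1 and 196.4 RPKM, and the lowest values are 0.43 RPKM for ABCG12 in the ventral and 0.57 RPKM for ATML1 in the dorsal library.

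Acyl supply starts with FATB, the thioesterase that releases saturated fatty acids from the plastid, and with LACS enzymes, which activate fatty acids with coenzyme A. The most abundant copy of FATB (AT1G08510), Csa2G005370, had 1567 ventral and 783 dorsal reads, 36.4 and 32.7 RPKM, and its ratio was close to 1 at -0.11 [-0.23 to 0.02]. Another copy (Csa1G397120) had 726 and 211 reads, 19.1 and 10.1 RPKM, a log2 ratio of 0.67 [0.45 to 0.90] short of 2-fold. The least abundant measured copy (Csa5G576640) went the other way, with 91 and 89 reads, 2.93 and 5.13 RPKM, 2.11-fold higher in the dorsal library [-1.52 to -0.64]. With the length trend removed this ratio was -0.95, just short of 2-fold.

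LACS2 (Csa2G238260, AT1G49430, listed as LRD2), which in Arabidopsis serves cutin synthesis, had 1166 ventral and 1156 dorsal reads, or 22.0 and 39.3 RPKM. Nearly equal reads in libraries of unequal depth put it 2.14-fold higher in the dorsal library, at -1.10 [-1.22 to -0.98], and at -1.47 with the length trend removed. LACS1 (Csa3G535120, AT2G47240), which serves both wax and cutin synthesis, had 397 and 191 reads, 8.02 and 6.95 RPKM, and a ratio of -0.06 [-0.31 to 0.20]. LACS2 therefore exceeded LACS1 by 2.74 times in RPKM in the ventral library and 5.66 times in the dorsal one. Such a proportion within a library does not depend on how the libraries are scaled. The change in proportion was 2.06-fold, with a 95% counting interval from 1.70 to 2.51. This and the pairs below were chosen after their values were seen and are descriptions.

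Chain elongation is carried out by a complex in which a ketoacyl-CoA synthase (KCS) makes each condensation and sets chain length. Of the 8 KCS genes, all measured, 7 had a ratio above 1, where 50.5% of all measured genes did. Total reads raise every ratio, so these 7 stay above 1 by construction. With the length trend removed 5 of the 8 were above 1, where 49.8% of all measured genes were. The median log2 ratio was 0.29, and 0.10 with the trend removed. A single KCS gene (12.5%) was ventral-high and none was dorsal-high, where 13.2% and 11.5% of all measured genes were. KCS4 (Csa2G361630, AT1G19440, chromosome 2) had 378 ventral and 66 dorsal reads, 8.82 and 2.79 RPKM, a 2.65-fold higher level in the ventral library [1.03 to 1.81]. Its lowest value under any alternative setting was 1.24.

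KCS11 (Csa1G418240, AT2G26640), the most abundant KCS gene, had 3179 and 1148 reads, 57.7 and 37.5 RPKM, and was not called at 0.36 [0.26 to 0.46], a value that turned to -0.06 with the length trend removed. KCS6 (AT1G68530), also known as CER6 and listed as POP1, is the main condensing enzyme of stem wax in Arabidopsis. Its copies had 1301 and 397 reads (Csa5G609650, 31.0 and 17.0 RPKM, log2 ratio 0.60) and 408 and 169 reads (Csa3G178500, 7.72 and 5.79 RPKM, log2 ratio 0.16), and with the length trend removed the former was at 0.45 and the latter at -0.21. KCS20 (Csa3G144140, AT5G43760) had 1020 and 279 reads, 25.9 and 12.8 RPKM, at 0.76 [0.57 to 0.96], and lay nearest to 2-fold among the KCS genes that were not called. KCS10 (Csa4G649640, AT2G26250), known as FIDDLEHEAD for its role in keeping organ surfaces from fusing, was at 0.21 with 16.4 and 11.8 RPKM. The KCS19 (AT5G04530) copies were at 0.16 (Csa5G177700) and -0.40 (Csa5G178710), and the latter interval, -0.94 to 0.16, included 0.

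The core enzymes that complete each elongation cycle differed by less than 1.5-fold between the sides. The ketoacyl reductase KCR1 (Csa2G350250, AT1G67730, listed as YBR159) had 1005 and 395 reads and a log2 ratio of 0.24. The dehydratase PAS2 (Csa3G114430, AT5G10480, listed as PEP) had 451 and 292 reads and a ratio of -0.48, which was -0.10 with the length trend removed. The enoyl reductase CER10 (Csa5G517090, AT3G55360, listed as TSC13) had 1087 and 542 reads and a ratio of -0.11. None of these 3 was called under TMM, with or without the length trend.

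CER2 (Csa3G892170, AT4G24510, listed as VC2) is a protein that works with KCS6 to reach the longest wax chains. It had 377 ventral and 373 dorsal reads, 11.5 and 20.4 RPKM. That placed it 2.14-fold higher in the dorsal library [-1.31 to -0.88], and its log2 ratio was -1.01 with the length trend removed. KCS4 and CER2 thus differed in direction within the same pathway. KCS4 stood at 0.77 of the RPKM of CER2 in the ventral library and at 0.14 in the dorsal one, a 5.66-fold change in proportion with an interval from 4.17 to 7.75. A homologue of CER2 outside the 43 loci, picked after its values were seen (Csa2G147920, locus AT4G13840), had 896 and 255 reads and a log2 ratio of 0.70 [0.50 to 0.91].

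Among the enzymes that turn elongated chains into wax components, none of 8 measured genes was ventral-high and 1 (12.5%) was dorsal-high. Of all measured genes 13.2% were ventral-high and 11.5% dorsal-high. CER1 and CER3 together form alkanes. CER3 (Csa1G294020, AT5G57800, listed as YRE) had 1473 and 502 reads, 26.6 and 16.3 RPKM, at 0.44 [0.30 to 0.59], and 0.02 with the length trend removed. The main copy of CER1 (Csa6G079750, AT1G02205, listed as CER22 like all copies) had 762 and 417 reads, 16.4 and 16.2 RPKM, at -0.24 [-0.42 to -0.07]. With the length trend removed this copy was at -0.48. It supplied 64.0% of CER1 RPKM in the ventral library and 68.9% in the dorsal one.

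Another group of CER1 copies carries consecutive identifiers on chromosome 3, and its members did not change together. Csa3G127760 had 318 and 105 reads, 7.46 and 4.47 RPKM, at 0.49 [0.17 to 0.82]. Its neighbour Csa3G127770 had 59 and 62 reads, 1.46 and 2.78 RPKM, 2.27-fold higher in the dorsal library [-1.72 to -0.64]. The proportion of Csa3G127760 to Csa3G127770 was 5.11 in the ventral library and 1.61 in the dorsal one, a 3.17-fold change with an interval from 2.04 to 4.94. How reads shared by near-identical copies were assigned is not given in the sources used here, so values of single copies are uncertain throughout.

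CER4 (AT4G33790, listed as G7) is the reductase that makes primary alcohols of wax, and it had 6 cucumber copies, of which 4 were measured. Csa1G145850 and Csa1G145840, with consecutive identifiers and short exonic lengths of 434 and 484 bp, had 153 and 96 reads and 103 and 60 reads. Their ratios of -0.44 and -0.33 lay close to those of other short transcripts and became -0.06 and 0.08 with the length trend removed. On chromosome 6, Csa6G152310 had 131 and 115 reads at -0.92 [-1.30 to -0.55], and Csa6G151810 had 133 and 44 reads at 0.49 [-0.02 to 1.01]. No CER4 copy was called in either direction. The regulator CER9 (Csa7G073540, AT4G34100), a ubiquitin ligase of the endoplasmic reticulum whose loss alters cutin and wax in Arabidopsis, had 1573 and 500 reads. Its log2 ratio of 0.54 [0.40 to 0.69] turned to -0.26 with the length trend removed, at an exonic length of 3867 bp.

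Among cutin genes, a monooxygenase gene was ventral-high and an acyltransferase gene lay on the same side short of 2-fold. CYP86A8 (Csa6G004550, AT2G45970, listed as LCR for LACERATA), which hydroxylates the end of fatty acid chains, had 926 ventral and 209 dorsal reads, 25.6 and 10.4 RPKM. It was 2.05-fold higher in the ventral library [0.82 to 1.26] and moved little with the length trend removed, to 1.03. With a trend of the ratio on expression level removed it was 0.98, just short of 2-fold. GPAT8 (Csa6G004540, AT4G00400), which joins such fatty acids to glycerol, carries the preceding identifier on chromosome 6. It had 2456 and 674 reads, 59.0 and 29.2 RPKM, and a log2 ratio of 0.75 [0.63 to 0.88], short of 2-fold.

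The other cutin genes lay slightly on the dorsal side under TMM. DCR had 6113 and 3679 reads and a log2 ratio of -0.38 [-0.44 to -0.32], the narrowest interval of the set, and -0.15 with total reads. GPAT6 (Csa3G732400, AT2G38110), a further glycerol acyltransferase, had 533 and 270 reads at -0.13 [-0.34 to 0.09]. HOTHEAD (HTH, AT1G72970), an oxidoreductase of cutin monomer synthesis, had 744 and 413 reads in its main copy (Csa3G848300) at -0.26, and 279 and 133 reads in Csa7G451340 at -0.04. Among these 4 genes only DCR and the main HTH copy kept a ratio below 1 with total reads. CYP86A8 changed 2.67-fold relative to DCR, from 0.053 of its RPKM in the dorsal to 0.14 in the ventral library, with an interval from 2.28 to 3.13.

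Export genes ran in both directions, with log2 ratios from -1.11 to 1.55. ABCG11 (Csa1G044820, AT1G17840, listed as WBC11), the transporter shared by wax and cutin export, had 497 and 182 reads, 11.5 and 7.64 RPKM, at 0.34 [0.09 to 0.59]. ABCG32 (Csa2G005890, AT2G26910, listed as PEC1), a full-size transporter of cutin precursors, had 429 and 68 reads, 4.43 and 1.26 RPKM. It was 2.92-fold higher in the ventral library [1.17 to 1.94], the highest ratio among the 48 genes. Its transcript, at 4392 bp, was also the longest among the ventral-high genes, and with the length trend removed the ratio was 0.64.

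ABCG12 (Csa6G434390, AT1G51500, listed as WBC12 and known as CER5), a wax exporter, had 24 reads in each library, 0.43 and 0.80 RPKM. It was 2.16-fold higher in the dorsal library [-1.99 to -0.23] on these few reads, and its 99% interval includes 1. Against ABCG11 it stood at 0.037 of the RPKM in the ventral library and 0.10 in the dorsal one. LTPG1, with 2598 and 1658 reads, was at -0.46 [-0.55 to -0.37], and at -0.21 with the length trend removed.

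Epidermal identity genes had the highest median ratio of the roles with more than 1 gene, 0.68 over 12 measured genes, with 9 ratios above 1. Of all measured genes 50.5% had a ratio above 1. The median exonic length of these 12 genes was 2654 bp. With the length trend removed their median was 0.11 with 8 of 12 above 1, where 49.8% of all measured genes were. PDF1 (AT2G42840), a gene used as a marker of the protoderm, was well expressed on both sides. Copy Csa6G178950 had 1720 and 791 reads, 50.4 and 41.8 RPKM, with a ratio of 0.01 [-0.11 to 0.13]. Copy Csa6G423360 had 2884 and 742 reads, 47.8 and 22.2 RPKM, at 0.85 [0.73 to 0.97]. The copies were nearly equal in RPKM in the ventral library, at a proportion of 0.95, and unequal in the dorsal library, at 0.53. The difference between the copies shrank from 0.84 to 0.29 (log2) with the length trend removed.

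PDF2 and ATML1, paired HD-ZIP IV factors that jointly specify the epidermis in Arabidopsis, were called in opposite directions. PDF2 (Csa6G514870, AT4G04890, chromosome 6) had 231 ventral and 257 dorsal reads, 3.94 and 7.90 RPKM, and was 2.40-fold higher in the dorsal library [-1.53 to -1.003]. ATML1 (Csa1G064670, AT4G21750, chromosome 1) had 98 and 17 reads, 1.78 and 0.57 RPKM, and was 2.67-fold higher in the ventral library [0.66 to 2.25]. It was the only measured gene of the set with fewer than 20 reads in 1 of the libraries. With the length trend removed ATML1 was at 1.003 [0.25 to 1.84], at the edge of 2-fold, and PDF2 at -1.74. PDF2 exceeded ATML1 in both libraries, by 2.21 times in RPKM in the ventral library and 13.9 times in the dorsal one. The 6.40-fold change in proportion had an interval from 3.66 to 11.8, and the log2 ratio of PDF2 minus that of ATML1 was -2.68 as counted and -2.74 with the length trend removed.

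**Figure D4:**
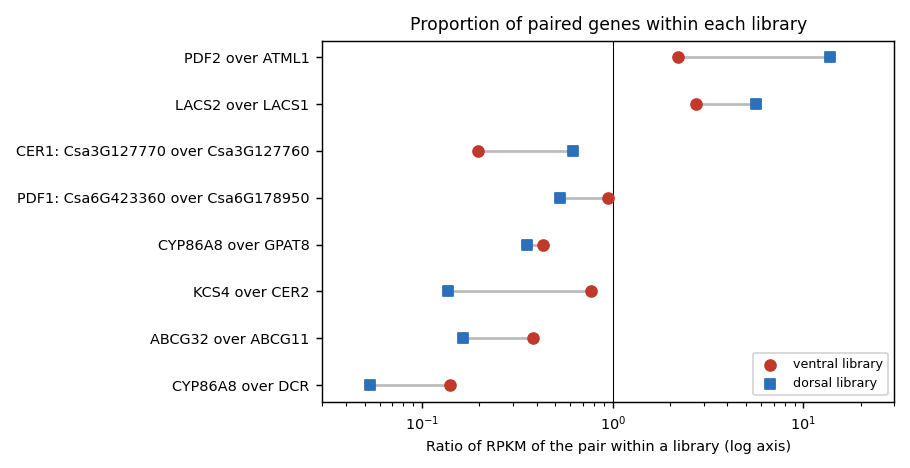
RPKM of a gene divided by that of a partner within the same library (log axis), with a red circle for the ventral and a blue square for the dorsal library, for 8 pairs chosen after their values were seen. The proportion of PDF2 to ATML1 is 2.21 in the ventral library and 13.9 in the dorsal one, and that of KCS4 to CER2 is 0.77 and 0.14.

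TTG1 (Csa4G097650, AT5G24520, listed as URM23), a WD-repeat protein that works with MYB and helix-loop-helix factors in trichome formation and pigment synthesis, had 368 ventral and 67 dorsal reads. At 11.4 and 3.75 RPKM it was 2.54-fold higher in the ventral library [0.97 to 1.74]. Its transcript was short for the group, at 1468 bp, and the ratio was 1.45 with the length trend removed. GL2 (Csa7G447000, AT1G79840), the HD-ZIP IV factor downstream of TTG1 in Arabidopsis trichomes and root hairs, did not follow it. GL2 had 1137 and 571 reads, 19.8 and 18.0 RPKM, at -0.12 [-0.26 to 0.03]. With the length trend removed it was at -0.57 [-0.72 to -0.42], on the dorsal side and short of 2-fold.

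Of the copies of the other HD-ZIP IV genes, 5 of 6 had a ratio above 1 as counted, where 50.5% of all measured genes did. Each of the 6 ratios was lower with the length trend removed. ANL2 (AT4G00730), named for loss of anthocyanin in the layer below the epidermis, had copies with 1044 and 295 reads (Csa6G074030, 15.0 and 7.63 RPKM) and 230 and 52 reads (Csa3G180430, 3.65 and 1.51 RPKM). The former had a ratio of 0.71 and the latter was ventral-high, by 2.05-fold [0.59 to 1.50], but these became 0.08 and 0.49 with the trend removed. The HDG2 (AT1G05230) copies had 1238 and 317 reads (Csa7G044240) and 525 and 156 reads (Csa2G419960), with ratios of 0.85 and 0.64 that became 0.38 and 0.14. HDG11 (AT1G73360), a factor of trichome branching, was low in both libraries. Its copies had 136 and 92 reads (Csa3G187250) and 76 and 31 reads (Csa1G031750), with ratios of -0.55 and 0.18 that became -0.85 and -0.39, so that both lay on the dorsal side with the trend removed.

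**Figure D5:**
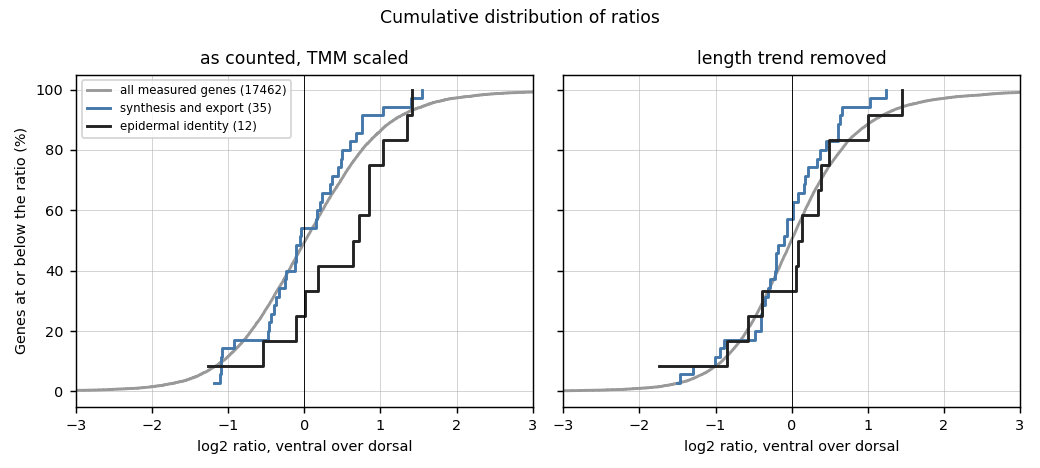
Share of genes at or below each log2 ratio (ventral over dorsal) for all 17462 measured genes, the 35 genes of synthesis and export and the 12 epidermal identity genes, as counted (left) and with the length trend removed (right). As counted, the epidermal identity curve lies to the right of the others in its middle part, with a median of 0.68, but not at its ends. With the trend removed it lies near them, with a median of 0.11.

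Copies of the same locus were set side by side. Of the 15 loci with 2 or more cucumber genes, 10 had 2 or more measured copies, and in 5 of these (CER1, FATB, KCS6, PDF1 and CER4) the counting intervals of the most different copies did not overlap. That is 50% of these loci, where 56.6% of all 2725 loci with 2 to 4 measured copies had such intervals. The same copy was the most abundant in both libraries at all 15 loci. Of the 59 genes, 11 had fewer than 20 reads in all and were not measured, and these were lesser copies of CER1, CER4, GL2, FATB, CER10, GPAT6, LTPG1 and PDF2. Among them 5 had 0 reads in a library: a GL2 copy (Csa3G484830) and a CER4 copy (Csa6G151800) with 4 ventral reads each, a CER1 copy (Csa3G708180) and a CER10 copy (Csa4G295510) with 1 ventral read each, and an LTPG1 copy (Csa3G645900) with 1 dorsal read. A count of 0 allows up to 3 reads, so no fold is given for these.

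A wider list of cuticle and epidermis loci outside the 43 was read in the same way. Of 71 loci 37 had a cucumber gene, and of the 42 measured genes 4 were ventral-high and 3 dorsal-high, with a median of -0.19. These are 9.52% and 7.14% of the list, below the 13.2% and 11.5% of all measured genes. Ventral-high were DEK1 (Csa1G599520, listed as EMB80, log2 ratio 1.28), a calpain that epidermal development needs, and ACR4 (Csa4G015780, listed as CR4, 1.02), a receptor kinase of the outer layer. The acyl-CoA synthetase LACS9 (Csa4G363460, 1.12) and the stomatal protease SDD1 (Csa5G157240, 1.06) were the others. None of these 4 was called with the length trend removed.

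Dorsal-high were the stomatal genes BASL (Csa1G039940) and FAMA (Csa3G131940, listed as FMA) and the wax regulator MYB94 (Csa1G033200). BASL had 8 ventral and 19 dorsal reads [-3.76 to -1.10], FAMA 23 and 22 reads [-1.95 to -0.13] and MYB94 44 and 41 reads [-1.66 to -0.36]. These rest on few reads, and with the length trend removed only BASL of the 3 was still called. Of the 9 measured cuticle regulator genes, which include homologues of WIN1, SHN2, MYB16, MYB30, MYB94 and CER7, 7 had a ratio below 1. Of all 17462 measured genes 8648 did. The median of the 9 genes was -0.65. Their median exonic length was 975 bp, and with that trend removed the median was -0.25.

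Markers of other tissues moved as follows, and their part in the results was not tested. Of 7 measured photosynthesis genes 3 were dorsal-high, where 11.5% of all measured genes were, and the summed RPKM was 6150 ventral and 8722 dorsal. Of the 7 ratios 6 were below 1, where 8648 of all 17462 measured genes were. That of RBCS3B (Csa5G609710) was above 1, at 0.67 (log2). With the length trend removed 3 were still dorsal-high, and RBCS3B was ventral-high at 1.12. Of 5 measured xylem genes 3 were dorsal-high, where 11.5% of all measured genes were. The sums over all 8 xylem genes were 29.2 and 60.4 RPKM, with 0 dorsal reads for SND1 and an XCP1 copy. Of the 5 ratios 4 were below 1, and among these the interval of Csa1G470270 included 0. That of Csa6G088080 was above 1, at 0.53 [0.18 to 0.90] (log2). With the length trend removed Csa6G088080 was at -0.23 and all 5 ratios were below 1. Of 21 measured phloem genes 1 was ventral-high (4.76%) and 3 were dorsal-high (14.3%), beside 13.2% and 11.5% of all measured genes. Among these phloem genes 11 ratios were above 1 and 10 below. Their sums were 7247 and 7973 RPKM, of which 1 phloem protein 2-A1 copy (Csa7G056500) alone gave 4625 and 5641. None of 4 measured ovule genes was called, with sums of 47.3 and 50.9 RPKM, and the INO copies had at most 3 reads in a library.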

How the data were processed

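Read counts per gene were deposited by the authors as whole numbers without normalization, and RPKM values as the authors computed them, per the file headers. The submitters' processing notes name TopHat2 and edgeR with no version or role. The sources used here do not give the genome build, the counting tool or the strand setting. Poly(A) RNA was made into directional libraries, per the labels' protocols, which name instruments for paired-end and for single-end reads but not the one used for each library.

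Members were found by the Arabidopsis locus in the read table. The members and lists were chosen with earlier results of these data known. TMM scaling (edgeR 4.0.16, R 4.3.3) was computed on the 17462 genes with at least 20 reads in all. Ratios carry exact conditional binomial (Clopper-Pearson) 95% intervals, computed with scipy 1.17.1 and tested on simulated data. A library at 0 reads is read with a floor of 3 reads, 0.137 CPM in the ventral and 0.252 CPM in the dorsal library. Exonic length is reads divided by RPKM, times a constant. The constant was set on genes of at least 10 RPKM in both libraries, so that the highest ratios of implied to listed gene length are near 1. Some implied lengths exceed the listed one. The length trend is a lowess fit (span 0.3, statsmodels 0.14.6) over all measured genes. Named are all called members, the 2 most abundant per role, members at 0 reads, and called genes of the wider list; other members complete their role, and gene pairs and uncalled genes of the wider list were chosen after their values were seen. Alternatives were total reads, DESeq2 1.42.0 size factors, trends with length and level, minimums of 1 and 100 reads, a 99% interval, and RPKM with pseudocounts of 0.1 and 1 and with no filter.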

Additional observations from a re-analysis of the deposited data

How the results depend on the processing

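No paired analysis was possible because there is only 1 library for each side. No result met the criteria for a closer look. The 12 called genes kept their direction under every alternative that measured them, which is no support because most settings move ratios by far less than 2-fold. The number called in each direction stayed within 1.5 times with DESeq2 size factors, the length and level trends removed, read minimums of 1 and 100, and the 99% interval. Scaling by total reads left 1 dorsal-high gene in place of 6. The RPKM settings, which use 2-fold with no interval, gave 10 and 0 genes with a pseudocount of 0.1, 0 on the dorsal side with a pseudocount of 1, and 15 and 1 with no filter. The median log2 ratio of the set, 0.16, was 0.39 with total reads, 0.39 with RPKM and a pseudocount of 0.1, and 0.41 with no filter. It turned to -0.059 with the length trend removed and to -0.042 with a minimum of 1 read, where 11 more genes of few reads enter.

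For the wider list, 4 genes higher in the ventral library became 9 with total reads, 0 with the length trend removed, 2 with the level trend removed, 8 with RPKM and a pseudocount of 0.1 and 10 with no filter. Its 3 genes higher in the dorsal library became 1 with total reads and with RPKM at either pseudocount, 5 with a minimum of 1 read and 0 with a minimum of 100 reads. Over all genes, the 2005 higher in the dorsal library became 1283 with total reads, 1175 with RPKM and a pseudocount of 0.1 and 924 with a pseudocount of 1, and the 2304 higher in the ventral library became 4419 with no filter. Total reads shift every ratio to the ventral side by construction. RPKM does the same before its pseudocount is added, which draws ratios of low values toward 0: with a pseudocount of 1 the log2 ratios of ATML1 (Csa1G064670) and the ANL2 copy (Csa3G180430) were 0.82 and 0.89, short of 2-fold, and that of ABCG32 (Csa2G005890) was 1.26. The cause of the other changes was not tested. ABCG12, with 24 reads in each library, could not be measured with a minimum of 100 reads.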

Other observations

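The KCS6 copy Csa3G178500 lies between KCS5 copies in identifier order on chromosome 3. The KCS5 copies had 90 ventral and 38 dorsal reads (Csa3G178490, log2 ratio 0.13) and 204 and 126 reads (Csa3G178510, -0.42 [-0.74 to -0.08]), beside 0.16 for the KCS6 copy. Among HD-ZIP IV genes outside the 43 loci, HDG5 (Csa3G901030) had 493 and 126 reads and a log2 ratio of 0.86 [0.57 to 1.15], and 0.44 with the length trend removed. SCRM, a helix-loop-helix factor of the stomatal lineage, had 2457 and 628 reads in its main copy (Csa1G051760), 51.4 and 23.7 RPKM, at 0.86 [0.73 to 0.99].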
